A study of Mus musculus with 4 samples.

Results

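Oxidative phosphorylation is carried out by protein complexes of the inner mitochondrial membrane. The genes taken here are the subunits of complexes I, III, IV and V, selected from the mouse gene list by their symbols: those that begin with Ndufa, Ndufb, Ndufc, Ndufs or Ndufv, with Uqcr, with Atp5, with Cox4 to Cox8, or with mt-Nd, mt-Co, mt-Atp or mt-Cytb. The symbol rule found 102 of the 31053 genes in the deposited matrices and 0 pseudogene copies among them. Of these, 89 were nuclear: 36 subunits of complex I, 8 of complex III, 20 of complex IV, 16 of complex V, and 9 genes whose symbols match but whose products are not counted as subunits (the Ndufaf genes, which help to assemble complex I, and Atp5s). The other 13 were the protein genes of the mitochondrial genome, of which 7 belong to complex I, 1 to complex III, 3 to complex IV and 2 to complex V. The symbol rule uses no measured value, though it was set with earlier results of these data known. Cox7b2, Cox8c and one of a pair of rows named Atp5o had no UMI (unique molecular identifier, a tag that marks one captured RNA molecule) in the cells analysed.

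As background, complex I takes electrons from NADH, complex III passes them from ubiquinol to cytochrome c, complex IV hands them to oxygen, and complex V, the ATP synthase, makes ATP from the proton gradient that the others build. A handful of the core subunits are encoded in mitochondrial DNA, transcribed as long RNAs and cut apart at the transfer RNAs between them. All other subunits are encoded in the nucleus, made in the cytosol and imported, so each complex except complex II draws on both genomes. Complex IV also has subunits in paired forms, one made in nearly every cell and the other known from muscle, testis, lung or hypoxic cells.

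The study sequenced single cells of 4 mouse samples, 1 library for each age (aged or young) of brain and of spleen. The labels give no strain and no age in numbers. They say of all 4 that the cells were sorted as CD45hi by flow cytometry, that mice had received tamoxifen 4 weeks before tissues were taken to measure tdTomato+ NK cells, and that the cell type is neuroblast. Libraries were made with a droplet 3′ kit, which counts RNA molecules near their 3′ end. The labels name no Cre driver and do not say whether a library pools animals. With 1 library a group there is no replicate, so no test was made and no p-value is given: intervals are exact 95% intervals that cover counting error only, and a difference between libraries cannot be told apart from a difference between the animals or preparations behind them.

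After filtering, the brain libraries kept 11018 aged cells (median 2130.5 UMIs) and 3552 young cells (2326), and the spleen libraries 5335 aged (4620) and 6377 young (4119). The young brain and the aged spleen shared 5192 called cell barcodes, where chance sharing of barcodes gives 9.13, and 5191 of them had more UMIs in the aged spleen. Those barcodes were left out of the young brain. The other pairs of libraries shared 7 to 59. Clusters were named from marker lists, and no cluster was named by the list of neuron and neuroblast markers. Named classes in the aged and the young brain included 6388 and 2597 microglia-like cells and 926 and 228 border macrophage-like cells. The sort notwithstanding, 374 endothelial-like, 219 mural or fibroblast-like, 215 choroid plexus or ependymal-like and 61 astrocyte-like cells were found in the aged brain. The aged and the young spleen held 1942 and 2425 B-like, 1715 and 1672 T-like, and 814 and 1862 NK-like cells. Cluster 3, a low-RNA cluster of 2376 aged and 544 young brain cells, stayed unnamed.

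Levels are given as UMIs per 1e6 UMIs (CPM) of the summed cells of a class in a library. Summed over the 89 nuclear genes, oxidative phosphorylation RNA was highest, among named classes of at least 50 cells in a library, in the choroid-like cells of the aged brain, at 40278 CPM. Cycling cells followed, with 24211 CPM in the aged spleen and 19420 in the aged brain, and then monocyte-like cells of the aged brain at 18045 and red pulp macrophage-like cells of the young spleen at 17038. Neighbours from rank 4 to rank 8 of this order had overlapping intervals, as did many lower in it. Among the latter were neutrophil-like cells of the aged brain, whose interval overlapped those of aged microglia-like and aged B-like cells. Microglia-like cells stood low, at 10345 CPM (young) and 10188 (aged), beside B-like cells of the aged spleen at 10030. The lowest were plasma-like cells of the aged spleen at 8000 and erythroid-like cells of the aged brain at 5488. The choroid-like and erythroid-like cells thus marked the ends of a 7.34-fold range within the aged brain library. CPM is a share of a class's UMIs, so very abundant RNAs of a class lower the CPM of its other genes. The plasma-like cells were led by immunoglobulin genes such as Igha and Igkc, and the erythroid-like cells by globin genes such as Hbb-bs and Hba-a1. The part of these RNAs in the low sums, nuclear or mitochondrial, was not tested. With a limit of 20% mitochondrial UMIs in place of 10%, choroid-like cells stayed first at 38228 CPM, but astrocyte-like cells of the young brain came next at 21205 and the lowest class was dendritic-like cells of the aged spleen at 3635, so the order below the first place depends on that limit.

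The 13 mitochondrial transcripts gave another order. Choroid-like cells were again highest, at 75077 CPM, but B-like cells, low in nuclear subunits, came next with 63727 (aged spleen) and 56367 (young spleen). T-like cells of the aged spleen held 53702 and NK-like cells of the aged spleen 37925. Microglia-like cells held 32169 (aged) and 24250 (young), neutrophil-like cells 16836 in the aged brain and 16208 in the young spleen, and erythroid-like cells of the aged brain 14744, a 5.09-fold range within that library. Cells with over 10% mitochondrial UMIs had been removed, which caps these sums and bears on their order. With a limit of 20%, astrocyte-like cells of the young brain came first at 133308 CPM, choroid-like cells next at 130900, then dendritic-like cells of the aged spleen at 101720 and B-like cells of the aged spleen at 65469. Across the 26 combinations of class and library, each nuclear complex followed the other nuclear members with a Pearson r of 0.951 to 0.98. Spearman rho for the nuclear complexes was 0.888 to 0.951. The nuclear sum and the mitochondrial sum had r = 0.564 and Spearman rho = 0.316. These correlations are descriptions: the points share 4 libraries, their depth and their free RNA.

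**Figure D1:**
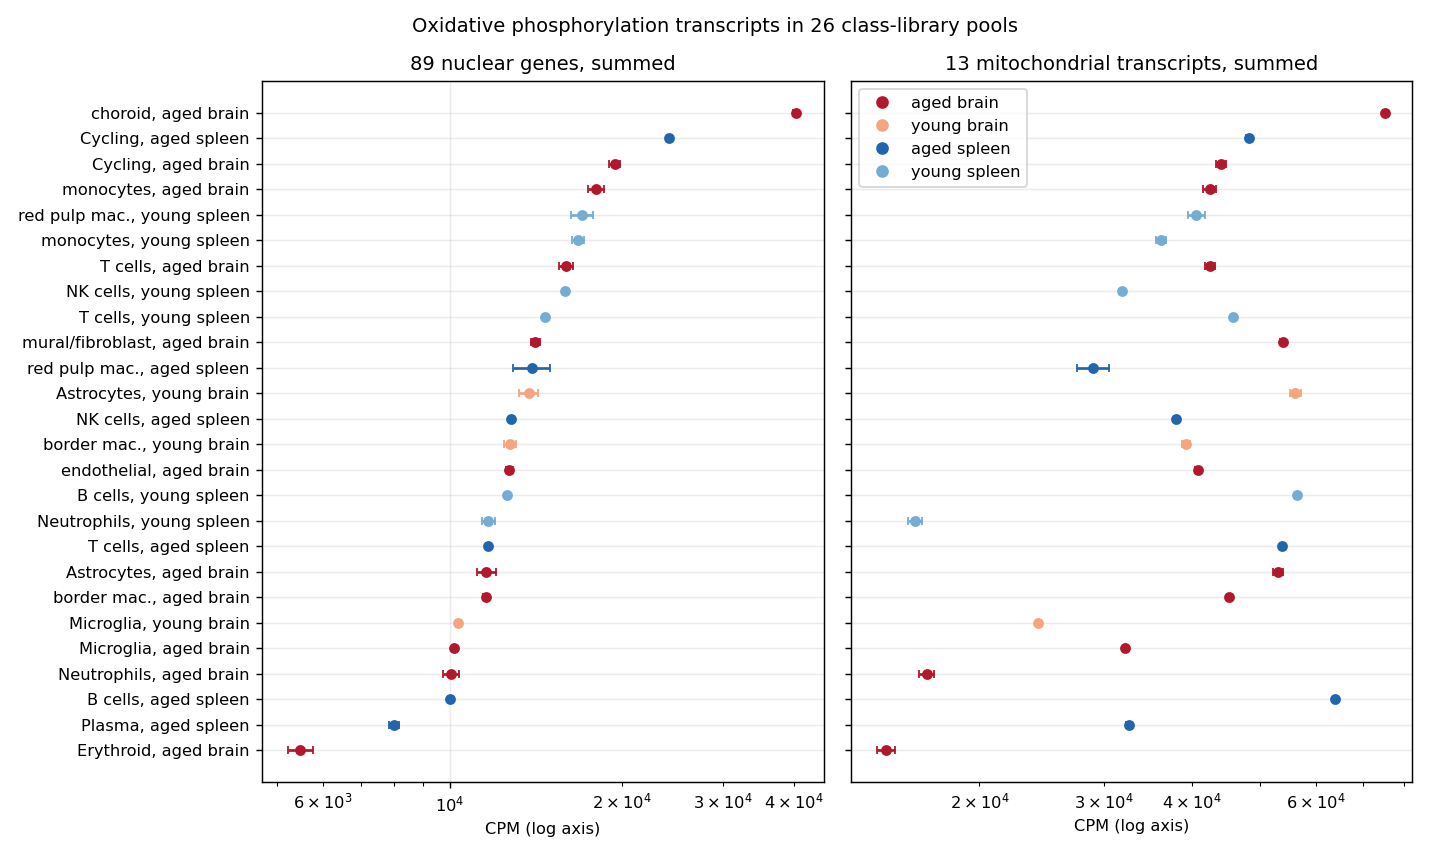
Summed level of the nuclear (left) and mitochondrial (right) oxidative phosphorylation genes in CPM on log axes; rows are the 26 combinations of class and library, ordered by the nuclear sum, colours are libraries and bars the 95% counting interval. Choroid-like cells of the aged brain are highest in both panels among these classes of at least 50 cells, and B-like cells of the aged spleen are low in the left (10030) and high in the right (63727).

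Single nuclear members kept to this common order to different degrees. Atp5k, a small subunit of the ATP synthase membrane part, and Cox6a1, the widely made form of complex IV subunit 6A, had the closest patterns to the other nuclear members, with r = 0.953 and 0.949 over the 26 combinations. Cox7a2l, which helps complexes III and IV join into supercomplexes, was least alike, with r = 0.42. Among genes outside the list, the patterns most like the nuclear sum were those of Cacybp (0.905), Tomm7 (0.9), Swi5 (0.899), Timm13 (0.888) and 2010107E04Rik (0.879). Tomm7 and Timm13 belong to the machinery that brings proteins into mitochondria.

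The members with the widest spread over classes differed between libraries. In the aged brain, Atp5g1, one of the genes for the rotating c ring of ATP synthase, ran from 1367 CPM in choroid-like cells to 52.6 in erythroid-like cells, a 26-fold range with an interval of 15.7 to 46.5. Ndufs5 ran from 547 to 28.1 CPM and Ndufb2 from 341 to 17.5, both accessory subunits of complex I. In the aged spleen, Uqcr10, a small complex III subunit, ran from 416 CPM in cycling cells to 63 in plasma-like cells, and Cox5a, a matrix-side subunit of complex IV, from 519 to 94.6. Where erythroid-like or plasma-like cells are the low end, the limit given above for their shares applies. The young spleen order was led by mitochondrial genes that separate lymphocytes from neutrophils: mt-Nd2 stood at 4463 CPM in B-like cells and 763 in neutrophil-like cells. In the young brain, mt-Co1, the catalytic subunit of complex IV, stood at 2576 CPM in astrocyte-like and 969 in microglia-like cells.

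The first comparison asked how the aged spleen differed from the young spleen in each lymphocyte class. Nuclear subunit RNA was lower and mitochondrially encoded RNA higher in the aged library, in B-like, T-like and NK-like cells alike. In B-like cells the nuclear sum was 10030 CPM aged and 12621 young, a ratio of 0.795 (0.788 to 0.802), and in T-like cells 11656 and 14665, also 0.795 (0.789 to 0.801). NK-like cells held 12828 and 15890, a ratio of 0.807 (0.799 to 0.816). Every nuclear complex lay below 1 in each of the 3 classes. Complex I had ratios of 0.766, 0.76 and 0.784 in B-like, T-like and NK-like cells, complex III 0.817, 0.822 and 0.842, complex IV 0.817, 0.813 and 0.816, complex V 0.796, 0.802 and 0.812, and the assembly genes 0.746, 0.774 and 0.717. The accessory subunits of complex I stood at 0.76 and its conserved core subunits at 0.808 in B-like cells, and at 0.754 and 0.813 in T-like cells, while in NK-like cells the order was the other way, 0.785 and 0.771.

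**Figure D2:**
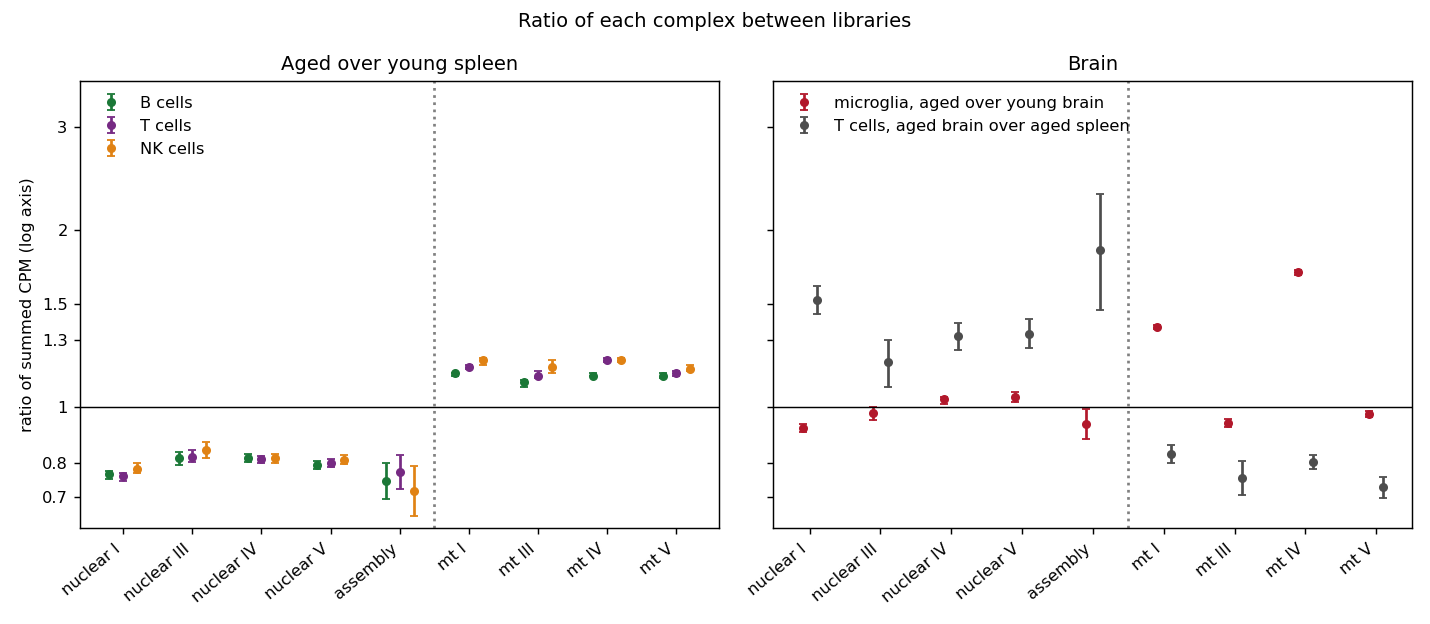
Ratio of summed CPM for each complex and genome on a log axis, aged over young spleen in B-like, T-like and NK-like cells (left), and aged over young brain in microglia-like cells with aged brain over aged spleen in T-like cells (right); bars are 95% counting intervals. In the left panel the nuclear complexes lie below 1 and the mitochondrial ones above 1 in all 3 classes.

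Single members were counted next, and most differed by less than 1.5-fold. Of 80 nuclear members with at least 50 UMIs over both libraries, 77 lay below 1 in B-like cells, 79 in T-like cells and 78 in NK-like cells, and the interval lay wholly below 1 for 70, 74 and 70 of them. All 36 nuclear complex I subunits lay below 1 in each class. No share of all tested genes below 1 is given beside these counts, so they are not read as a result about the members. The median ratio of all tested genes was itself below 1, at 0.917, 0.942 and 0.921 in B-like, T-like and NK-like cells. The median log2 ratio of the nuclear members was -0.38 in B-like, -0.39 in T-like and -0.34 in NK-like cells, beside -0.13, -0.09 and -0.12 over all genes tested, so the whole scale sat below 0 by over 0.1 in B-like and NK-like cells. Few members passed a 1.5-fold difference. In B-like cells 12 of 80 were lower and 0 higher, where 9.33% of the 9616 genes tested were lower and 5.28% higher. T-like cells had 5 lower and 0 higher, where 8.6% of all genes were lower and 8.11% higher, and NK-like cells 6 lower and 0 higher, where 10.7% were lower and 6.64% higher. In T-like and NK-like cells the count at 1.5-fold was thus no larger than the background. Past a milder log2 ratio of 0.32, 49 of 80 nuclear members were lower in B-like cells, 45 in T-like and 44 in NK-like cells and 0 were higher in any of the 3, where 27.4%, 24.3% and 28.7% of all genes were lower and 12.5%, 15.6% and 13.9% higher. With at least 200 UMIs required, the members lower past 1.5-fold numbered 3 in T-like and 2 in NK-like cells, where 5.88% and 7.06% of all genes were.

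Ndufa4 carries a complex I name and is now placed in complex IV. It had 136 CPM in aged and 243 in young B-like cells (1212 and 2460 UMIs), a ratio of 0.56 (0.522 to 0.6), the lowest of the 12. Ndufb3, an accessory subunit of the membrane arm (GRCm38, chromosome 1, 58586384 to 58595964, forward strand), had 70.2 and 113 CPM in B-like cells, a ratio of 0.622 (0.563 to 0.686), and 77.1 and 123 in T-like cells, 0.626 (0.571 to 0.687). Ndufc1, another membrane arm subunit, had 57.4 and 95.6 CPM in B-like cells, 0.6 (0.538 to 0.669). The intervals of these genes lie apart from 1 by more than counting error. The further complex I subunits past 1.5-fold were Ndufa8, Ndufs5, Ndufa5 and Ndufb7 in B-like cells, at 0.626 to 0.664, and Ndufs5 in T-like cells, with 64 and 98.9 CPM.

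In complexes III and IV the same held for a few small subunits. Uqcr11, the smallest complex III subunit, stood at 0.636 in B-like cells and in NK-like cells at 111 and 167 CPM, 0.663 (0.594 to 0.74). Uqcrb, which binds near the ubiquinone site of complex III, had 107 and 168 CPM in T-like cells, 0.636 (0.588 to 0.688). Cox6b1, the complex IV subunit that faces cytochrome c (chromosome 7, 30616861 to 30626151, reverse strand), had 166 and 258 CPM in B-like cells, 0.643 (0.603 to 0.685), and 250 and 352 in NK-like cells, 0.709, which is inside the 1.5-fold limit. Among the most abundant members the ratios were closer to 1: Cox4i1, the ubiquitous complex IV subunit 4, stood at 0.96, 0.917 and 0.87 in B-like, T-like and NK-like cells, and Uqcrh, the complex III hinge protein, at 0.909, 0.89 and 0.91.

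Assembly factors of complex I included the lowest ratios but rested on few molecules. Ndufaf1 had 46 UMIs in aged and 95 in young T-like cells, 4.42 and 10.6 CPM, a ratio of 0.417 (0.287 to 0.6), and stood at 0.573 in B-like and 0.551 in NK-like cells. The other assembly genes past 1.5-fold were Ndufaf2 in B-like cells (0.587), Ndufaf6 in T-like cells (0.493) and Ndufaf4 and Ndufaf5 in NK-like cells (0.655 and 0.554). Outside complex I the list was completed by Atp5s in B-like and NK-like cells (0.635 and 0.594) and Cox6a2 in NK-like cells (0.574). Counts over the 3 classes likewise have no share of all genes beside them and are not read as a result about the members. Of 79 nuclear members tested in all 3 classes, 76 lay below 1 in all 3 and 63 had an interval below 1 in all 3. The 3 that did not were Uqcrfs1, the iron-sulfur subunit of complex III, at 1.08, 0.956 and 1.1 in B-like, T-like and NK-like cells, the assembly gene Ndufaf7 at 1.11, 0.667 and 0.832, and Cox7a2l. Cox7a2l alone was above 1 in every class, with 329 and 289 CPM in B-like, 409 and 390 in T-like and 297 and 277 in NK-like cells.

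Summed, the mitochondrial transcripts ran the other way. The sum was 63727 CPM in aged and 56367 in young B-like cells (1.13, interval 1.13 to 1.13), 53702 and 45771 in T-like cells (1.17, 1.17 to 1.18) and 37925 and 31895 in NK-like cells (1.19, 1.18 to 1.2). With cells over 5% mitochondrial UMIs removed in place of 10%, the B-like ratio turned to 0.989 and the T-like ratio fell to 1.05, so these sums depend on where that limit is set. All 4 mitochondrially encoded groups were above 1 in the 3 classes, with complex I at 1.14, 1.17 and 1.2, complex III at 1.1, 1.13 and 1.17, complex IV at 1.13, 1.2 and 1.2 and complex V at 1.13, 1.14 and 1.16. The single transcripts did not all follow: 9 of 13 lay above 1 in B-like and in T-like cells and 10 in NK-like cells, and 4, 4 and 3 below. mt-Nd3, a complex I subunit, was highest, with 2282 and 1638 CPM in B-like cells (1.39), 1938 and 1312 in T-like cells (1.48) and 1298 and 931 in NK-like cells (1.39). Below 1 in all 3 were mt-Atp8, an ATP synthase subunit, at 0.758, 0.756 and 0.867, and mt-Nd4l, a complex I subunit, at 0.687, 0.708 and 0.806. The other 10 lay between 0.89 (mt-Nd5 in B-like cells) and 1.29 (mt-Nd1 in NK-like cells), and those below 1 were mt-Nd4 (0.969) and mt-Nd5 in B-like cells, mt-Nd5 (0.904) and mt-Nd6 (0.989) in T-like cells and mt-Nd6 (0.948) in NK-like cells. mt-Co2 stood at 1.16, 1.23 and 1.19 and mt-Cytb at 1.1, 1.13 and 1.17.

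The opposite shifts were also present within cells and subsets. The median cell held 0.963% nuclear and 6.28% mitochondrial member UMIs in aged B-like cells against 1.21% and 5.51% in young ones, and the same order held for T-like cells (1.12% and 5.29% against 1.4% and 4.44%) and NK-like cells (1.26% and 3.59% against 1.56% and 2.96%). Among the 4 clusters of T-like cells, the nuclear ratios were 0.812, 0.738, 0.845 and 0.736 and the mitochondrial ones 1.21, 1.09, 1.15 and 1.13. Barcodes of at most 100 UMIs, taken as free RNA, moved the same way as the cells: 10632 CPM aged and 13875 young for the nuclear members, 75483 and 57905 for the mitochondrial ones. The part of free RNA in the difference was not tested. Median UMIs per cell were 4164 and 3793 in B-like, 5779 and 5085 in T-like and 4634 and 4060 in NK-like cells, and the erythroid list (8 markers) summed to 189 and 71.8 CPM in B-like, 154 and 48.3 in T-like and 401 and 293 in NK-like cells. Their part was not tested.

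Other mitochondrial gene lists give the surroundings of this difference. The mitochondrial ribosome genes, which serve only the 13 transcripts above, were lower past 1.5-fold in 15 of 77 in B-like, 17 in T-like and 20 in NK-like cells with 0 higher, and their median log2 ratios were -0.38, -0.32 and -0.43. Protein import genes had medians of -0.28, -0.21 and -0.29 and factors that assemble complex IV -0.27, -0.29 and -0.37. The tricarboxylic acid cycle list had -0.19, -0.14 and -0.05, the regulators of mitochondrial transcription and biogenesis -0.11, -0.02 and -0.12, and the cytosolic ribosome, the largest other set of small abundant transcripts, -0.02, -0.11 and -0.06. Red pulp macrophage-like cells, 55 aged and 115 young, held 13910 and 17038 CPM nuclear (0.816, 0.748 to 0.891). Their mitochondrial sum was lower in the aged library, 28944 and 40591 CPM (0.713, 0.672 to 0.757), against the direction in lymphocytes, and turned to 1.01 with a limit of 20% mitochondrial UMIs.

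The second comparison asked the same of the brain. Here nuclear subunit RNA hardly differed in microglia-like cells, with an aged level of 10188 CPM and a young level of 10345, a ratio of 0.985 (0.976 to 0.994). Complex I lay lower, at 0.919 (0.905 to 0.933), complex III at 0.975, complex IV at 1.03 and complex V at 1.04. Of 84 nuclear members tested, 38 lay above 1 (Ndufb4 by a log2 ratio of only 0.01) and 46 below, with a median log2 ratio of -0.02 beside 0.07 over all genes. Past 1.5-fold, 5 of 84 were higher and 0 lower, where 12.7% of 11008 genes were higher and 4.65% lower. Past a log2 ratio of 0.32 the nuclear counts were 12 and 10, where 26.4% and 14.1% of all genes were higher and lower. The aged microglia-like cells came mostly from clusters 0 and 1 (904 and 4959 cells, against 5 and 71 young) and the young ones from cluster 2 (2431, against 218 aged), so the clusters and the libraries nearly coincide. Within cluster 1 the nuclear sums were 10327 aged and 9698 young, and within cluster 2 10363 and 10345. The ratio turned to 1.02 with a limit of 20% mitochondrial UMIs and to 1.01 with finer clustering, so no direction is read from it. The cytosolic ribosome list, by contrast, had 20 of 80 genes higher past 1.5-fold and a median log2 ratio of 0.46, and the mitochondrial ribosome list a median of -0.18.

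Within complex I, 25 of 36 subunits were below 1 and 11 above. This count has no share of all tested genes below 1 beside it and is not read against a background. The median ratio of all tested genes was 1.05. The lowest of these subunits was Ndufb8, in the membrane arm (chromosome 19, 44548572 to 44555440, reverse strand), at 92.7 CPM aged and 135 young, a ratio of 0.688. Ndufc2 had 135 and 189 CPM and Ndufb5 97.1 and 130. In complex III, Uqcrc2, a core protein, stood at 81.2 and 118 CPM. Among the 5 past 1.5-fold, Atp5g2, another gene for the c ring of ATP synthase, rested on the most molecules, with 240 and 148 CPM, a ratio of 1.63 (1.52 to 1.75). It was also higher in the other brain classes, at 242 and 151 CPM in border macrophage-like cells and 218 and 113 in astrocyte-like cells. The others were Atp5s, an ATP synthase coupling factor (9.4 and 5.7 CPM), and 3 complex IV forms known from muscle or testis: Cox6b2 (7.36 and 2.7), Cox7a1 (3.11 and 1.05) and Cox8b, described below.

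The 13 mitochondrial transcripts did differ between the brain libraries, and unequally. Their sum in microglia-like cells was 32169 CPM aged and 24250 young, a ratio of 1.33 (1.32 to 1.33), but complex IV transcripts stood at 1.7 (13494 and 7948 CPM) and complex I at 1.37, while complex III stood at 0.937 and complex V at 0.972. mt-Co1 had 3724 CPM aged and 969 young, a ratio of 3.84 (3.74 to 3.94). mt-Nd4l had 336 and 101 CPM, 3.31 (3.06 to 3.59), mt-Atp8 459 and 171, mt-Nd6, the one member on the reverse strand, 52.3 and 19.6, and mt-Nd3 1330 and 589. mt-Co2 stood at 1.79, mt-Nd5 at 1.52, mt-Nd2 at 1.49, mt-Nd1 at 1.37 and mt-Co3 at 1.2, so the 3 complex IV transcripts alone spanned 1.2 to 3.84. On the other side of 1 were mt-Atp6, the proton channel subunit of ATP synthase, at 5140 and 5590 CPM, mt-Nd4 at 2160 and 2370, and mt-Cytb, the sole mitochondrially encoded complex III subunit, at 0.937. Past 1.5-fold, 7 of the 13 were higher. Within clusters 1 and 2 the sums were 31905 against 25150 and 32549 against 24097, and in cluster 6, whose leading genes are interferon-induced (307 aged and 90 young cells), 36416 against 27887.

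The same transcripts stood out in brain classes that were not named microglia-like. The part of microglia RNA in these classes was not tested. In border macrophage-like cells mt-Co1 had a ratio of 3.36, mt-Nd6 3.16, mt-Nd4l 2.33, mt-Atp8 2.32 and mt-Nd3 1.76, and mt-Nd4 stood at 0.725. In astrocyte-like cells mt-Nd4l stood at 2.73, mt-Co1 at 2.62, mt-Atp8 at 2.01 and mt-Nd3 at 1.83, beside 0.646 for mt-Atp6, 0.667 for mt-Cytb and 0.671 for mt-Nd4. The nuclear sums were lower in the aged brain in both, 11589 and 12739 CPM in border macrophage-like cells (0.91, 0.885 to 0.935) and 11601 and 13743 in astrocyte-like cells (0.844, 0.8 to 0.891). The border macrophage ratio turned to 1.03 when cells were called by an order-of-magnitude cutoff alone. The mitochondrial sum of astrocyte-like cells was 52975 and 56085 CPM, a ratio of 0.945, and turned to 1.03 with cells thinned to 1000 UMIs. Of 76 nuclear members tested in border macrophage-like cells, 3 were higher and 5 lower past 1.5-fold, where 16.4% and 9.48% of all genes were. The 5 lower ones were Ndufb10 (0.548), Ndufb8 (0.61), Ndufa4 (0.622), Ndufa10 (0.635) and Uqcrfs1 (0.662). In astrocyte-like cells 1 was higher and 8 lower of 47, where 16.7% and 10.2% of all genes were.

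**Figure D3:**
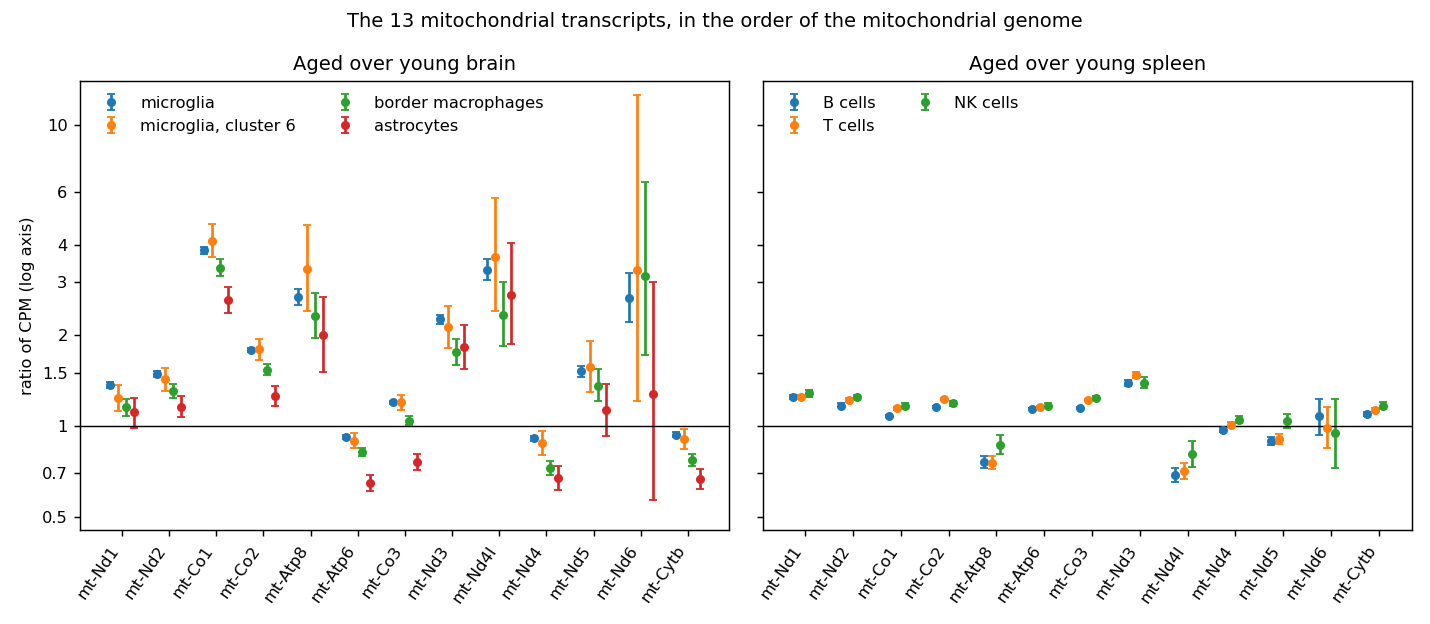
Ratio of CPM on a log axis for the 13 mitochondrial transcripts in their order on the genome, aged over young brain (left: microglia-like cells, cluster 6, border macrophage-like and astrocyte-like cells) and aged over young spleen (right: B-like, T-like and NK-like cells); bars are 95% counting intervals. mt-Co1, mt-Atp8, mt-Nd3 and mt-Nd4l are high in the 4 brain lines, whereas mt-Atp8 and mt-Nd4l are low in the 3 spleen lines.

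Pairs of these transcripts can be compared as ratios of their UMIs summed over the cells of a class or library, where library depth cancels. Cells with more UMIs weigh more in these ratios. mt-Atp8 with mt-Atp6 and mt-Nd4l with mt-Nd4 are pairs of reading frames on one shared RNA each. They overlap, by 43 and 7 bases, so a pair member does not exist as an RNA of its own. The part of the shared bases in the counts of either member was not tested. For the reference sequence at the junctions, each line gives 80 bases of the forward strand of GRCm38 with GENCODE M21 gene bounds. The windows are chrM:7890-7969, chrM:7927-8006, chrM:10094-10173 and chrM:10167-10246, and capitals mark the bases that belong to both genes.
mt-Atp8: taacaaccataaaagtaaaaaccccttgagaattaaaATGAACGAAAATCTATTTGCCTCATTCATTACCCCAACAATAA
mt-Atp6: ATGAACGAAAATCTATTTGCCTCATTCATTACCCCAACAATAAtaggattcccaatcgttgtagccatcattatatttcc
mt-Nd4l: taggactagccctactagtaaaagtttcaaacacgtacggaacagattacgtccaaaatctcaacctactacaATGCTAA
mt-Nd4: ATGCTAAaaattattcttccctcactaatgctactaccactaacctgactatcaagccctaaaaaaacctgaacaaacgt
The stop of the first gene of each pair thus lies inside the second. The sources used here do not say how reads that touch the shared bases were assigned.

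The pair ratios differed between libraries, and also between classes within a library. Over all cells mt-Atp8 UMIs per 100 of mt-Atp6 numbered 8.29 in aged and 2.89 in young brain, beside 2.8 in aged and 4.09 in young spleen. Over the classes of the aged brain the ratio ran from 5.63 in erythroid-like to 9.25 in monocyte-like cells, above the ranges of the young brain (2.5 to 3.06) and the aged spleen (2.56 to 3.87). Its low end lay within the young spleen range, 3.83 to 5.96. mt-Nd4l per 100 mt-Nd4 was 14.4, 4.09, 6.33 and 8.84 in the 4 libraries in the same order, with class ranges of 7.85 to 15.6, 3.46 to 4.62, 5.88 to 7.65 and 7.38 to 9.55. T-like cells, present on both sides, had 7.6 mt-Atp8 per 100 mt-Atp6 in aged brain, beside 2.69 in aged and 4.11 in young spleen. NK-like cells stood above them in the aged and young spleen, at 3.39 and 4.59, and B-like cells below, at 2.56 and 3.87. mt-Co1 per 100 mt-Co3, whose RNAs are separate, was 68.5 in aged and 20.8 in young brain, beside 76.4 in aged and 82.5 in young spleen, so here the young brain stood apart from the other 3 libraries, with class ranges of 17.4 to 22.7 against 52.2 to 94.3, 58.1 to 82.6 and 70 to 100.

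Free RNA showed these ratios in part. Barcodes of at most 100 UMIs had 20.4 mt-Co1 per 100 mt-Co3 in the young brain, and 47.8 (aged brain), 56.8 (aged spleen) and 56.6 (young spleen) elsewhere. mt-Atp8 per 100 mt-Atp6 was 2.68 in the free RNA of the aged brain, below every class of its cells, and 2.27 (young brain), 2 (aged spleen) and 2.2 (young spleen) in the others. The part of age in the aged over young brain ratios of single mitochondrial transcripts above cannot be told apart from that of the library.

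**Figure D4:**
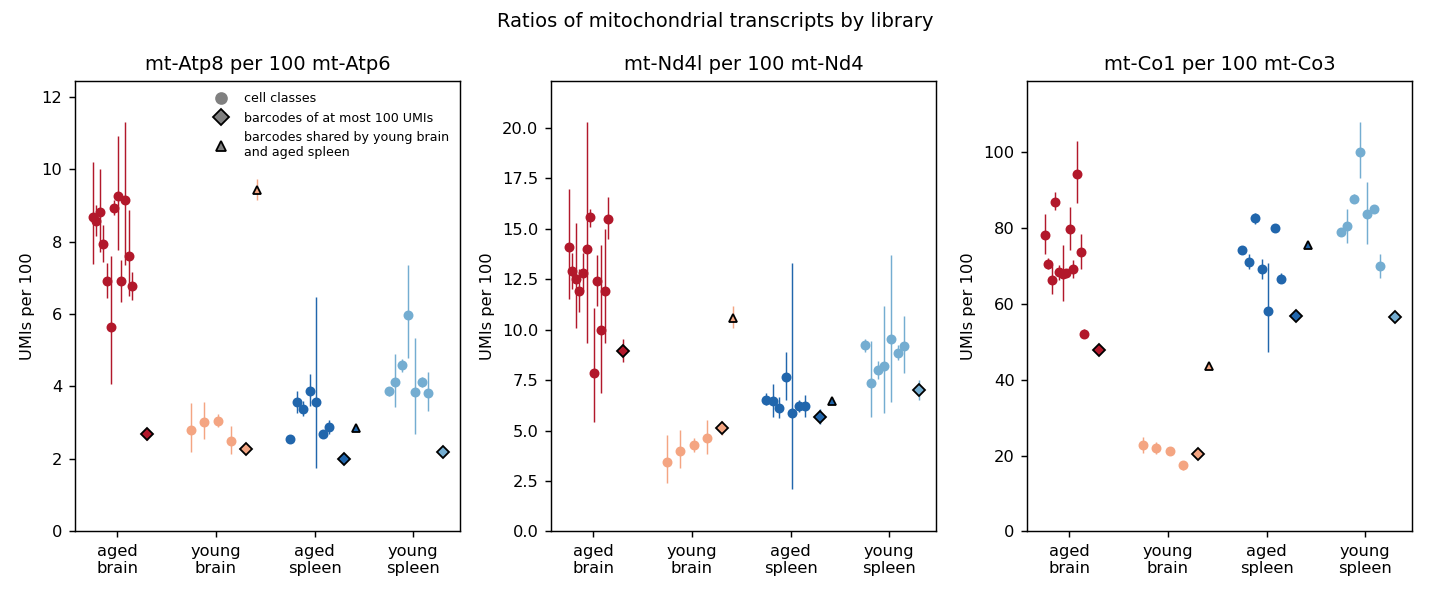
UMIs of mt-Atp8 per 100 of mt-Atp6, mt-Nd4l per 100 of mt-Nd4 and mt-Co1 per 100 of mt-Co3 by library, on linear axes; circles are classes with 95% counting intervals, diamonds are barcodes of at most 100 UMIs, and triangles are the barcodes that the young brain and the aged spleen share. The classes of the aged brain stand high for mt-Atp8 (5.63 to 9.25), and those of the young brain low for mt-Co1 (17.4 to 22.7).

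T-like cells allowed the tissues to be compared at the same age, 96 cells of the aged brain with 1715 of the aged spleen. The nuclear members stood higher in the brain, 15972 and 11656 CPM, a ratio of 1.37 (1.33 to 1.41), and the mitochondrial ones lower, 42451 and 53702, a ratio of 0.79 (0.776 to 0.805). Within cluster 7, one of the T-like clusters, the ratios were 1.41 and 0.737. Complex I stood at 1.52, complex III at 1.19, complex IV at 1.32, complex V at 1.33 and the assembly genes at 1.85. Of 78 nuclear members tested, 40 were higher past 1.5-fold and 1 lower, where 29.9% of 9004 genes were higher and 21% lower. The median log2 ratio was 0.59 beside 0.17 over all genes. Atp5j2, the f subunit of the ATP synthase membrane part, had 443 and 234 CPM, 1.89 (1.57 to 2.26), and Ndufa13, a complex I subunit also known as GRIM-19, likewise stood at 1.89 (1.56 to 2.28). The largest ratios, 6.22 for Ndufaf1 and 5.58 for Ndufaf7, rested on 8 and 15 brain UMIs.

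Other values moved with this tissue difference. The aged brain T-like cells had a median of 2620 UMIs, against 5779 in the spleen. The microglia list, with 10 of 10 markers detected, summed to 4965 CPM in them and to 32 in the spleen with 7 of 10, the choroid list to 3200 with 7 of 9 markers and 1.54 with 3 of 9, and the NK list to 1768 and 430 with 9 of 9 in both. The free RNA of the aged brain held 14313 CPM of nuclear members, above the spleen T-like level. Their part in the difference was not tested. The mitochondrial ribosome genes, which are not members, had 33 of 77 higher and 8 lower past 1.5-fold and a median log2 ratio of 0.47.

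Cox8b is the heart and skeletal muscle form of the smallest complex IV subunit (chromosome 7, 140898945 to 140900446, reverse strand), and Cox8a its ubiquitous partner (chromosome 19, 7215153 to 7217616, reverse strand). Cox8b had 0 UMIs in the cells of both spleens. Its level was 579 CPM (534 to 627) in aged choroid-like cells, where 611 UMIs were found and 85 of 215 cells, 39.5%, held at least 1. In aged microglia-like cells it was 13.2 CPM, with 214 of 6388 cells, 3.35%, holding a UMI, at a median of 2346 UMIs per cell against 958 in the choroid-like cells. In young microglia-like cells 3 UMIs gave 0.45 CPM, so that the aged over young ratio was 29.4 (9.94 to 144).

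The level in microglia-like and border macrophage-like cells stood in about the same proportion to Ttr, the transthyretin RNA that choroid plexus makes in excess, as in the choroid-like cells. Cox8b per 1000 Ttr UMIs was 3.74 (3.45 to 4.05) in aged choroid-like cells, 3.92 (3.42 to 4.48) in microglia-like cells, 3.37 (2.22 to 4.91) in border macrophage-like cells and 5.11 (4.33 to 6) in free RNA. The intervals of these 3 classes overlap, and that of free RNA lies above the choroid-like one. Mural or fibroblast-like cells also lay above it, at 7.73 (4.57 to 12.2), on 18 Cox8b UMIs. The part of free RNA in the Cox8b ratio of microglia-like cells was not tested, and no expression there is read from it. Ttr itself was 3372 and 676 CPM in aged and young microglia-like cells, and the choroid list 3835 and 753 with 8 of 9 markers in each. In the young brain, Cox8b per 1000 Ttr was 0.197 (0.0851 to 0.388) over all cells. Cox7a1 and Cox6b2 were likewise highest in the choroid-like cells, at 75.8 and 184 CPM.

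Choroid-like cells were also high in the ubiquitous subunits. Cox8a stood at 1956 CPM, Cox4i1 at 1591, Ndufa4 at 914, Cox6b1 at 671 and Cox6a1 at 569. The cells were of uneven quality: 34.8% of the class's UMIs came from its 10 deepest cells. The 105 cells of at least 1000 UMIs held 39748 CPM nuclear and 79073 mitochondrial, and the 110 below that 47372 and 21621, so the nuclear level was high in both and the mitochondrial level in the deeper cells only, of the groups compared.

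Paired forms of complex IV subunits marked small groups of cells. Cox4i2, the hypoxia- and lung-linked form of subunit 4 (chromosome 2, 152754173 to 152765037, forward strand), and Ndufa4l2, a relative of Ndufa4 induced in low oxygen (chromosome 10, 127514967 to 127517154, forward strand), met in cluster 5.6. This cluster of 42 aged and 3 young brain cells stayed unnamed and was led by genes that include Vtn, Rgs5, Pdgfrb, Abcc9 and Higd1b, genes known from pericytes. In its aged cells Cox4i2 stood at 190 CPM (132 to 266) with UMIs in 23 of 42 cells, and Ndufa4l2 at 588 (481 to 711) with UMIs in 34. Its 3 young cells held 1 Cox4i2 UMI, 155 CPM (3.92 to 862), and 12 Ndufa4l2 UMIs, 1857 CPM (960 to 3244). In the mural or fibroblast-like class the levels were 18.9 and 57.7 CPM, in endothelial-like cells 3.32 and 14.9, and in aged microglia-like cells 0.778 and 1.26, where 0.204% and 0.329% of cells held a UMI at a median of 2346 UMIs, against 3080 in the aged cells of cluster 5.6. Cox4i1 and Ndufa4 were present in cluster 5.6 too, at 504 and 157 CPM.

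Cox6a2, the muscle form of subunit 6A (chromosome 7, 128205435 to 128206387, reverse strand), was carried by cells that resemble plasmacytoid dendritic cells. In cluster 9.6, named by that list, all 6 young spleen cells held it, with 63 UMIs and 1247 CPM (958 to 1596), and all 3 aged spleen cells, with 29 UMIs and 1007 CPM. Cox6a1 was 238 and 208 CPM in them. In B-like cells 0.206% (young) and 0.103% (aged) held a Cox6a2 UMI. Elsewhere it was low: 39.9 CPM in young spleen monocyte-like cells, where the 17 UMIs came from 1 cell, and 13.7 and 9.6 CPM in aged and young microglia-like cells. In cluster 6 of the brain it was 50.2 aged and 24.3 young. Cox6b2, a testis form, was found at 108 CPM (young spleen) and 83.3 CPM (aged spleen) in cluster 12, an unnamed cluster led by Car1, Pf4 and Gata2.

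**Figure D5:**
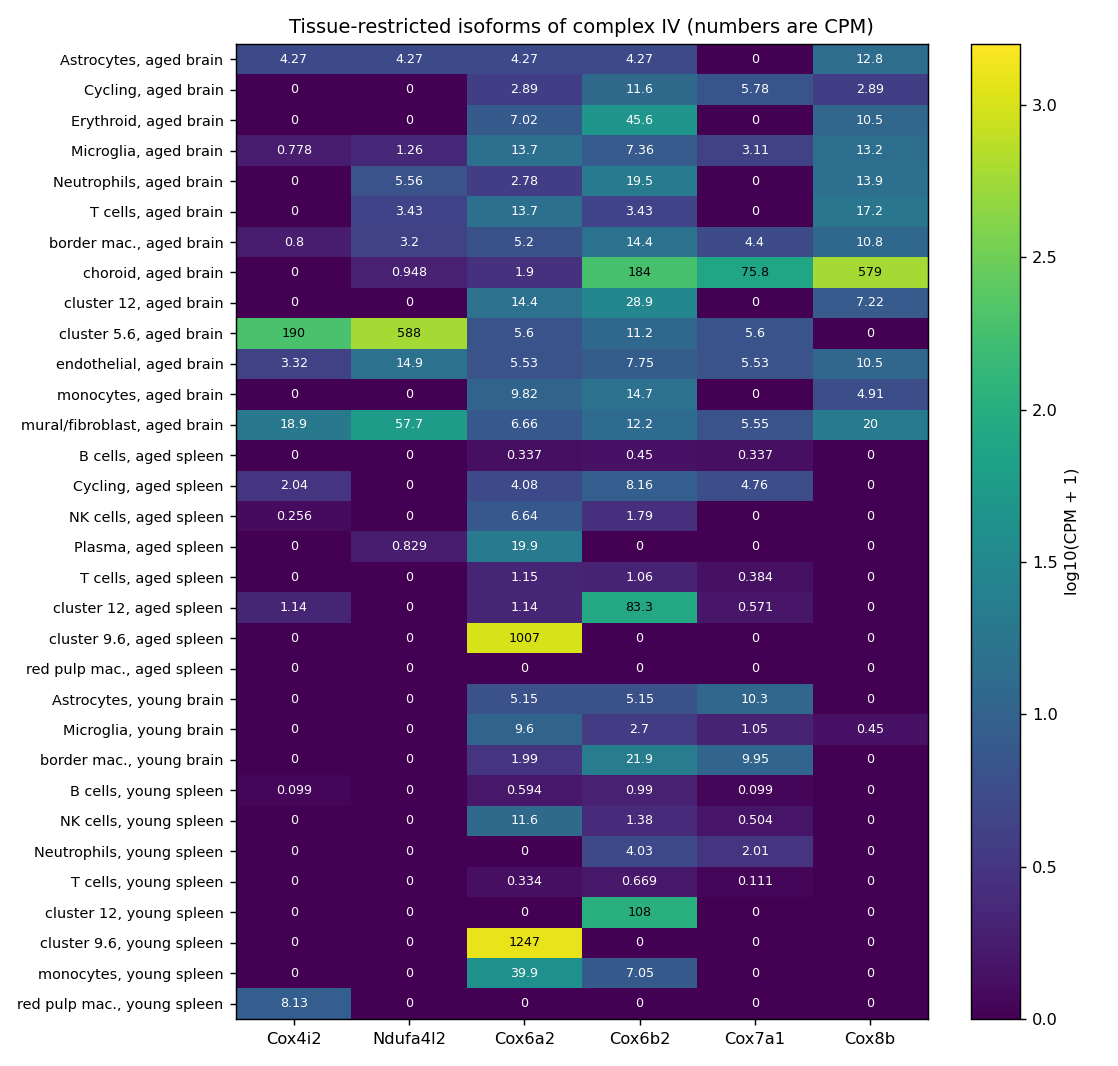
Level in CPM (numbers in the cells, colour on a log10(CPM + 1) scale) of 6 tissue-restricted complex IV forms (columns) in each class or cluster and library (rows). Cox8b is highest in choroid-like cells (579 CPM), Cox4i2 and Ndufa4l2 in cluster 5.6 (190 and 588 CPM in its aged brain cells) and Cox6a2 in cluster 9.6 (1247 CPM in the young spleen).

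Since the nuclear members moved together over classes, their promoters were searched, taken from RefSeq as the 250 bases before the start site in GRCm38.p6. The table held 74 of the 89 nuclear members, 66 of them subunit genes. Matches were sought on both strands for the 10-letter consensus of NRF1, a factor known to drive respiratory chain genes, for ETS (CCGGAAG), for the YY1 consensus and for the TATA box (TATAAA). The NRF1 letters were found in 11 of 66 subunit promoters, 16.7%, and in 4.23% of all 27025, ETS in 11, 16.7% beside 7.83%, YY1 in 1, 1.52% beside 0.359%, and TATA in 6, 9.09% beside 14.3%. A match is a description of the letters and not of binding. A relation between matches and pattern was not tested. Ndufa4 and Cox8a, whose patterns over classes had r = 0.942 and 0.931 with the nuclear members, hold none of the 4 motifs. Of the promoters below, Cox6a1 is an example with matches (NRF1 letters at -162 and -117 and ETS at -16 from the start site). Cox8a and Cox8b are shown for the pair described above. Each is given on its own gene's strand, the reverse strand in all 3, from chr5:115348959-115349208, chr19:7217617-7217866 and chr7:140900447-140900696, with matches in capitals.
Cox6a1: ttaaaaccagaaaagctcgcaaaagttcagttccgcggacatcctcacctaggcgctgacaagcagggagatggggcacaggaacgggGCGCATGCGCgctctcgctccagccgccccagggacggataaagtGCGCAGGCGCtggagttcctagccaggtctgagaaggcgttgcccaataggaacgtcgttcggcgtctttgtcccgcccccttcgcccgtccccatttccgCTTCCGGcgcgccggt
Cox8a: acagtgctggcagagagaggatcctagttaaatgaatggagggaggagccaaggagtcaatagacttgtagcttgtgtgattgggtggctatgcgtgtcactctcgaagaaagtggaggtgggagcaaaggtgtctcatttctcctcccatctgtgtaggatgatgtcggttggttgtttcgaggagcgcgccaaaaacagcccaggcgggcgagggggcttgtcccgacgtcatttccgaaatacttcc
Cox8b: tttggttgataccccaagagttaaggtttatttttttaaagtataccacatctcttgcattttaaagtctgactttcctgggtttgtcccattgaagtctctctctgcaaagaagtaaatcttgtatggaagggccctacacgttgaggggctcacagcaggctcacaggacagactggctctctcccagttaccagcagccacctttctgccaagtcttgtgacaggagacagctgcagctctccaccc
The Cox6a1 window holds 26 CG pairs, that of Cox8a 11 and that of Cox8b 1, with GC contents of 62.8%, 52.8% and 47.2%. Neither Cox8 window holds any of the 4 motifs, which says only that these letters are not in them.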

How the data were processed

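The deposited matrices hold raw UMI counts per gene and barcode, empty droplets included, as the file headers and values show; a header line gives software version 3.1.0. Per the submitters' processing notes, Cell Ranger 1.3.1 and the human build GRCh38 were used, although the gene IDs are mouse. The sources used here do not give the alignment settings. The authors' deposited tables of cluster markers give per gene a p-value and adjusted p-value, a log ratio (base not stated, taken as natural log) and the fraction of cells with the gene; of these only lists and values named as theirs were used.

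From the counts, cells were called by difference from the free RNA of barcodes of at most 100 UMIs (10000 simulations, false discovery rate 0.01), with at least 500 UMIs, 250 genes and at most 10% mitochondrial UMIs. Scrublet doublets were removed: 1193 (aged) and 107 (young) in brain, 160 and 231 in spleen. In both brain libraries the automatic threshold marked almost none (3 and 0), so the highest scores were taken at 0.8% per 1000 cells. Clustering (scanpy 1.11.5, Python 3.11.15) used 2000 variable genes without the members and mitochondrial genes, 30 components, 15 neighbours and resolution 1.0. Clusters 5, 9 and 13 were split again at resolution 0.3, and clusters were named from 22 marker lists, with scores below 1.0 or a second list within 0.5 left unnamed; these choices came after seeing the data, and cell names may differ from the study's.

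UMIs were summed per named class of at least 50 cells in a library, and for single clusters of any size, and divided by the class total (CPM). Intervals are exact 95% Poisson, conditional binomial or Clopper-Pearson (SciPy 1.17.1) and cover counting error only. Ratios were taken for genes that reached 50 UMIs in the 2 libraries together, and 1.5 was the fold counted as a difference. Named were the 13 mitochondrial genes, isoform pairs, the most abundant member per complex, the 4 most extreme ratios per comparison by the interval bound nearest to 1, and the 4 widest spreads; likeness is the correlation of log2(CPM + 10) over 26 class and library points. Other genes named were chosen after their values were seen. The members and all gene lists were chosen with earlier results of these data known. The scripts were tested on simulated data.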

Additional observations from a re-analysis of the deposited data

How the results depend on the processing

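With 1 library a group, no result has a replicate check, and no paired analysis was possible because no group has a second library. Class names were rebuilt here, free RNA was not subtracted, and mitochondrial levels are capped by the limit on cells. Ratios are aged over young in microglia-like, B-like, T-like and NK-like cells, and the causes of the moves were not tested. Main values are nuclear 0.985, 0.795, 0.795 and 0.807, and mitochondrial 1.33, 1.13, 1.17 and 1.19. In the 3 spleen classes the nuclear ratio stayed below 1 under every alternative run. Median-of-ratios scaling gave nuclear 0.936, 0.866, 0.844 and 0.877 and mitochondrial 1.26, 1.23, 1.246 and 1.29. A limit of 5% mitochondrial UMIs gave mitochondrial 1.3, 0.989, 1.05 and 1.16 and nuclear 0.812 in B-like cells. A limit of 20% gave nuclear 1.02 in microglia-like and 0.82 in NK-like cells, mitochondrial 1.23 in microglia-like, 1.16 in T-like, 1.16 in NK-like and 1.01 in red pulp macrophage-like cells, and ranges over aged brain classes of 5.19 nuclear (from 7.34) and 7.77 mitochondrial (from 5.09). The cutoff alone gave mitochondrial 1.39, 1.14 and 1.21 in microglia-like, B-like and NK-like cells, nuclear 0.801 in T-like cells and 1.03 in border macrophage-like cells. Equal weight for each cell gave nuclear 0.995, 0.805 and 0.802 and mitochondrial 1.31, 1.12 and 1.16 in the first 3 classes. Thinning to 1000 UMIs gave nuclear 0.996 in microglia-like cells and mitochondrial 1.12 in B-like, 1.16 in T-like and 1.03 in astrocyte-like cells (from 0.945). Resolution 1.5 gave 1.01 nuclear and 1.26 mitochondrial in microglia-like cells, and keeping the shared young brain barcodes 1.22 mitochondrial. Variable genes with the members gave mitochondrial 1.31 in microglia-like and 1.16 in T-like cells. A denominator without the members gave mitochondrial 1.34, 1.14 and 1.18 in the first 3 classes, and one without mitochondrial genes nuclear 0.801 in T-like cells. Past a log2 ratio of 0.32 the members higher and lower numbered 21 and 10 in microglia-like (from 12 and 0), 1 and 51 in B-like (from 0 and 12), 2 and 47 in T-like (from 0 and 5) and 2 and 44 in NK-like cells (from 0 and 6). With at least 200 UMIs, 3 were lower in T-like and 2 in NK-like cells. Other alternatives moved these values by less than their counting interval. Classes with under 50 cells in a library gave no value under some alternatives, and keeping shared barcodes bears on the brain alone.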

Other observations

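The choroid-like cells of the young brain were few, 16 cells with 153517 UMIs, of which 97.1% came from the 10 deepest. They held 49428 CPM of nuclear and 72533 CPM of mitochondrial members. The 11 of at least 1000 UMIs held 49571 and 73394, beside 39748 and 79073 in aged choroid-like cells of that depth. At that depth the nuclear intervals, 48451 to 50709 young and 39355 to 40145 aged, do not overlap. They cover counting error only and not the spread between cells. All 16 young cells together held 2 UMIs of Cox8b, 13 CPM (1.58 to 47.1), against 579 CPM (534 to 627) in all aged cells of the class. Per 1000 Ttr UMIs this was 0.0579 (0.00701 to 0.209) in young and 3.74 (3.45 to 4.05) in aged choroid-like cells. Each side is 1 library, and the difference was not tested. In the authors' deposited table Cox8b was listed for a single cluster over the 4 libraries, cluster 9 of the aged brain, led by Enpp2 and Ttr, with a log ratio of 1.293 and UMIs in 83.4% of its cells. That table listed 77 members for this cluster, 65 nuclear and 12 mitochondrial.

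Cluster 12, led by Car1, Pf4 and Gata2, stayed unnamed and was rich in nuclear members in the spleen, at 22166 CPM aged and 24350 young, with 49358 and 41174 CPM mitochondrial. In the aged brain it held 11859 nuclear. The opposite end was cluster 9.3, with 161 aged spleen cells, 2647 CPM of nuclear and 70376 CPM of mitochondrial members.

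The barcodes that the young brain shares with the aged spleen had mitochondrial pair ratios of their own. On their young brain side there were 9.43 mt-Atp8 UMIs per 100 of mt-Atp6, 10.6 mt-Nd4l per 100 of mt-Nd4 and 43.6 mt-Co1 per 100 of mt-Co3. On their aged spleen side the same barcodes had 2.86, 6.45 and 75.5, close to the 2.8, 6.33 and 76.4 of the aged spleen cells. The young brain cells kept for the comparisons had 2.89, 4.09 and 20.8.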
